A study of Homo sapiens with 16 samples.

Results

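Ribosome footprints were examined on the genes of the cell's motor proteins, the kinesins, dyneins and myosins. Members were all named genes whose symbol marks a kinesin (KIF), a cytoplasmic dynein chain (DYNC or DYNL), an axonemal dynein heavy chain (DNAH), an unconventional myosin (MYO), a class II myosin heavy chain (MYH) or a myosin light chain (MYL). The rule used the symbol alone and no measured difference. It found 73 members among 8503 named genes, from 117 such genes in the GENCODE 29 annotation. They were 25 kinesins, 6 cytoplasmic dynein chains, 10 axonemal dynein heavy chains, 23 unconventional myosins, 6 class II myosin heavy chains and 3 myosin light chains. Genes were named by matching coding lengths, and members of the families that could not be named in this way, among them DYNC1H1, KIF5B and KIF11, were not analysed here.

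The series examined rocaglamide A (RocA), a plant-derived inhibitor of translation, whose targets its title gives as DDX3 and eIF4A. Wild-type cells of 4 established human lines received the solvent DMSO, 0.3 µM RocA or 3 µM RocA for 30 min. NCI-H1650 and NCI-H520 derive from lung cancer, and Hs 936.T and A375 from melanoma. DMSO was sequenced in 2 libraries of each line and either dose in 1, which makes 16, and the lines served as the replicates of a dose (n = 4). Footprints, the mRNA fragments that ribosomes shield from RNase I, were counted per transcript, and no mRNA measurement was used here. DMSO replicate 2 and the 3 µM library of NCI-H520 carry the cell-line label NCI-H521 but the titles of NCI-H520, and were grouped by title.

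Kinesins and cytoplasmic dyneins are ATP-driven motors that carry cargo along microtubules, most kinesins outward and dynein toward the cell centre, and several kinesins build or take apart the mitotic spindle. Axonemal dyneins drive the beating of cilia and are largely found in ciliated cells, whereas the second cytoplasmic dynein moves material inside cilia. Myosins are the motors of actin filaments: class II myosins form the contractile filaments of muscle and of the cell cortex, and unconventional myosins tether membranes, move vesicles and push out protrusions.

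Kinesins, myosins and dynein heavy chains bind ATP through a P-loop (Walker A motif), which was searched for as glycine, 4 residues of any kind, glycine, lysine, and threonine or serine. Among 71 members with a coding sequence of the counted length, 68 held a match, against 5.73% of 8388 named genes. All 25 kinesins, 10 axonemal dynein heavy chains, 23 unconventional myosins and 6 class II heavy chains held one. DYNC1I1, DYNC1I2 and MYL6, non-catalytic chains of their motors, held none. The dynein light intermediate chains DYNC1LI1, DYNC1LI2 and DYNC2LI1 are not heavy chains, yet each held 1 match. A match alone therefore does not mark a motor chain. The first match of 6 members is shown because they span the families and the range of responses below. It is given 5′ to 3′ on the coding strand of the GENCODE 29 transcript, with the 8 codons of the motif in capitals and 1 codon on each side in lower case.
KIF2C: tatGGCCAGACAGGAAGTGGCAAGACAcat
KIF20B: tacGGGCTAACCAATTCAGGAAAAACAtat
DYNC2H1: tatGGACCAGCTGGAACTGGGAAAACGgaa
DNAH9: gcaGGACCTGCAGGCACAGGCAAGACCgag
MYH9: actGGTGAATCTGGAGCTGGCAAGACGgag
MYO1E: agtGGTGAAAGTGGTGCTGGAAAAACAgtg
The motif began at codon 348 of KIF2C, 152 of KIF20B, 1689 of DYNC2H1, 1870 of DNAH9, 174 of MYH9 and 112 of MYO1E. In the kinesins and myosins it stood in the motor head. In DYNC2H1 and DNAH9 the search found 2 and 3 matches, of which the first is shown. On the build of the annotation (GRCh38), KIF2C lies at chr1:44739818-44767767, KIF20B at chr10:89701610-89774939, DYNC2H1 at chr11:103109410-103479863 and DNAH9 at chr17:11598431-11969748, all on the plus strand. MYH9 lies at chr22:36281277-36388067 and MYO1E at chr15:59132434-59372900, both on the minus strand.

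Counts over the named genes lay between 473274 and 2661212 in the DMSO libraries and between 42735 and 510522 in those with RocA. The treated totals were 8.88% (NCI-H1650, 3 µM) to 39.7% (NCI-H520, 3 µM) of the mean DMSO total of their line. Values are counts per 1000000 counts (CPM) scaled to the content of each library, so every change is relative to the other genes of that library. In the NCI-H1650 library at 3 µM 1 count equals 20.1 CPM, and a gene at 0 there may stand at up to 60.4 CPM (3 counts). Genes of pigment cells, which mark Hs 936.T, were also read in NCI-H520. The summed level of 6 such genes there was 3.12% and 7.87% of that of Hs 936.T in the DMSO libraries and 0.904% and 2.11% at 0.3 and 3 µM. It was at most 0.688% in NCI-H1650 and A375. The 4 epithelial genes named summed to at least 3115 CPM in every lung line library and to at most 97.5 CPM in every melanoma line library, so A375 carried neither the pigment-cell nor the epithelial genes at more than a low level. The labels do not say whether libraries of a line came from separate cultures, so p-values between untreated lines measure the spread between these libraries, which may be technical. The fit with RocA used the same DMSO libraries, so that spread also enters its SE and p-values. In such libraries more cells of a kind and more footprints per cell cannot be told apart.

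In untreated cells most members were read at different levels in the 4 lines. MYH14 was read mainly in NCI-H1650, MYO10, MYO1D and MYH10 mainly in Hs 936.T, and DNAH9 and MYO5C mainly in NCI-H520. DYNC1I1 was 40.8-fold higher in NCI-H520 than in NCI-H1650, which held 2 counts of it in its DMSO libraries. The member most read per coding length was MYL6, the essential light chain of non-muscle myosin II, at 8673 CPM per 1000 codons on average over the lines. The highest density of a cytoplasmic dynein chain was that of DYNC1LI2, a light intermediate chain, at 594 CPM per 1000 codons. KIF22 was the highest kinesin at 433 and MYH9 the highest class II heavy chain at 328 CPM per 1000 codons. DYNC2H1, the heavy chain of the ciliary dynein, was the lowest of the 6 cytoplasmic dynein chains, with 8.11. Of 48 members with enough counts, 45 differed between the lines (edgeR quasi-likelihood, adjusted by Benjamini and Hochberg), against 91.2% of all 6447 genes tested, so the share is near that of genes at large. KIF9, MYH11 and MYO18A were the members that were not called. The highest line was Hs 936.T for 16 of the 45, NCI-H520 for 12, NCI-H1650 for 10 and A375 for 7. The same split was not counted over all genes, so it is not read as a trait of the members.

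**Figure D1:**
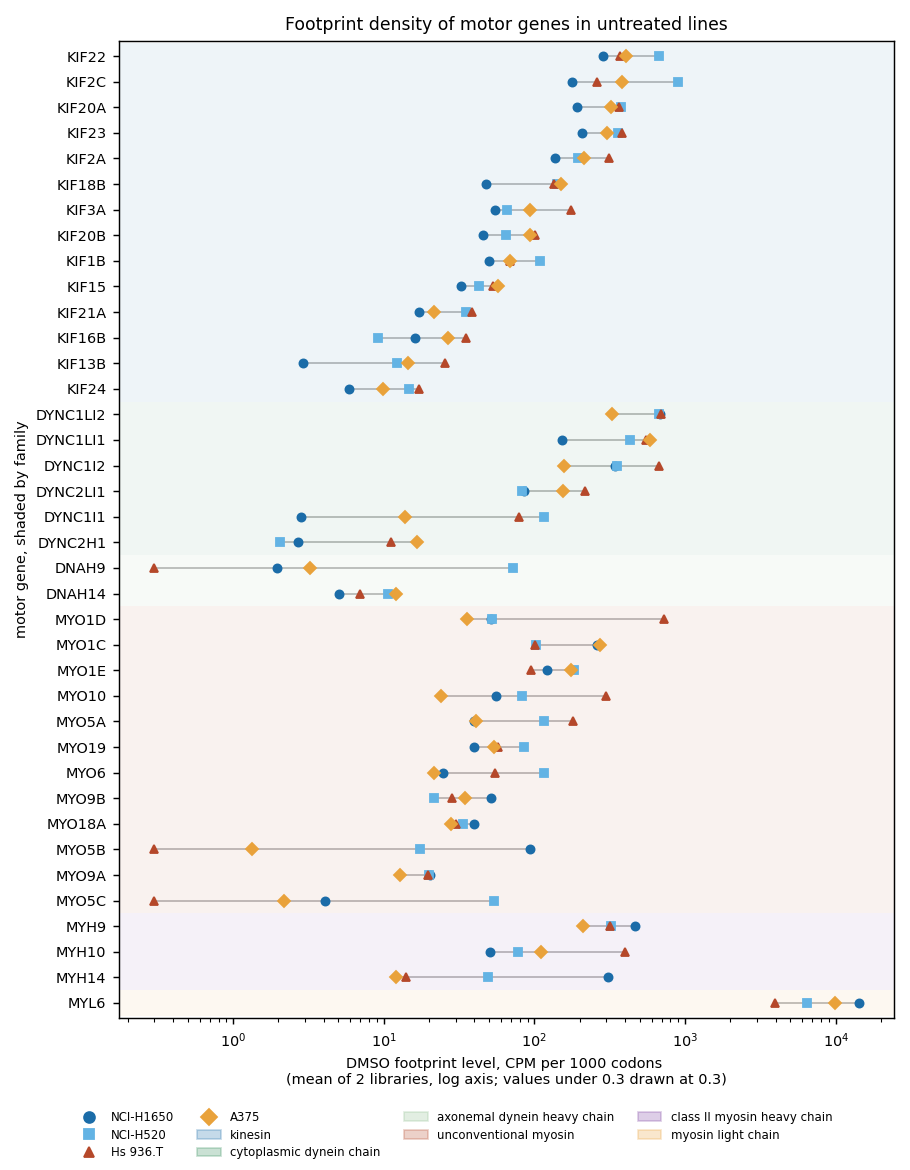
DMSO footprint density (CPM per 1000 codons, log axis, mean of 2 libraries) of 38 of the 39 motor genes tested with RocA, with 1 point per cell line, rows shaded by family, and values under 0.3 drawn at 0.3. MYL6 lies furthest right in every line, and DYNC1I1, DNAH9, MYO5B, MYO5C and MYH14 spread most between lines.

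The 3 members with the smallest p between untreated lines were myosins. MYH14, the heavy chain of non-muscle myosin IIC, stood at 550 and 674 CPM in the NCI-H1650 DMSO libraries, 99 and 97.7 in NCI-H520, 30.4 and 25.6 in Hs 936.T and 21.4 and 26.8 in A375 (Benjamini-Hochberg adjusted p = 2.0e-27, edgeR quasi-likelihood). MYO10, which builds filopodia, stood at 586 and 631 CPM in Hs 936.T, 158 and 179.9 in NCI-H520, 131 and 98.6 in NCI-H1650 and 54.6 and 42.9 in A375 (adjusted p = 1.6e-25). MYO5B, which carries recycling endosomes in epithelial cells, stood at 183 and 163 CPM in NCI-H1650, 36.4 and 27.4 in NCI-H520, 2.37 and 2.5 in A375 and 0 in both Hs 936.T libraries (adjusted p = 5.5e-22). For each of the 3 genes the DMSO libraries of the highest line lay well above those of every other line. MYO1D, a membrane-linked class I myosin, was likewise read mostly in Hs 936.T, at 722 ± 33.4 CPM (SD, n = 2) against 35.6 ± 1.66 in A375 and 51.3 ± 3.59 in NCI-H1650. In NCI-H520 its DMSO libraries were apart, at 24.2 and 80.5 CPM, and so were their pigment-cell levels given above. Whether the latter bear on the former was not tested.

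Among kinesins the largest mean level was that of KIF2C, at 639 ± 3.29 CPM in NCI-H520 and 127 ± 44.8 in NCI-H1650 (SD, n = 2), a 5.04-fold difference (adjusted p = 3.2e-17, same test). Of 10 axonemal heavy chains, 8 had too few counts to be tested with RocA, and DNAH8 had none. DNAH9, the heavy chain of the outer arm in cilia, stood at 313 and 332 CPM in the NCI-H520 DMSO libraries, 15.7 and 1.79 in NCI-H1650, 10.7 and 18.2 in A375 and 0 in Hs 936.T. Of the ciliated-cell genes, 6 were named, and they summed to 14.1 and 5.14 CPM in those 2 libraries of NCI-H520, with 4 of the 6 at 0 in each. Of the muscle class II heavy chains, MYH2, MYH7B and the smooth muscle chain MYH11 were named, and they held 1, 26 and 113 counts over all libraries.

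With RocA, the motor genes were called about as often as genes at large, and the counts differed by family, with most falls among the unconventional myosins. At 0.3 µM, 22 of 39 tested members were called, where 59.6% of all 5396 tested genes were, and 10 rose and 12 fell, where 23.8% and 35.9% did (edgeR quasi-likelihood test, Benjamini-Hochberg adjusted p under 0.05 over all genes tested). At 3 µM, 20 were called, against 56.3%, and 8 rose and 12 fell, against 22% and 34.3%. At equal depth within each line, 33 members could be tested, of which 9 rose and 7 fell at 0.3 µM and 10 rose and 6 fell at 3 µM. Rises then outnumbered falls among the members. Of the falls, those of MYO9B at 0.3 µM and of KIF18B and KIF3A at 3 µM were tested at equal depth and not called. The other falls missing there, such as that of DNAH14, had too few counts to be tested. Of all 4244 genes tested at equal depth, 1017 rose and 1340 fell at 0.3 µM, and 1081 rose and 1353 fell at 3 µM. Whether the members differ from genes at large in this was not tested. The median log2 change of the members was -0.14 and -0.05 at the lower and higher dose, and that of all genes -0.18 and -0.24. In all 4 lines, 6 members lay above both DMSO libraries and 10 below both at 0.3 µM, where 18.6% and 30.1% of all tested genes did, and 6 and 9 at 3 µM, where 16.3% and 30.1% did. The members rising at both doses numbered 8, those falling at both 10, and 15 were called at neither. No member was called in opposite directions. Among called members all 4 lines had the sign of the fitted change in 18 of 22 at 0.3 µM and 17 of 20 at 3 µM. The calls come from a fit over these same lines, and both doses were set against the same DMSO libraries. Agreement between lines and between doses is therefore partly built in, and its share over all genes was not counted. The 34 members not tested had at most 188 counts over the 16 libraries, and 5 of them (DNAH8, KIF25, MYO15A, MYO1A and MYO1H) had none.

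By family, 4 of 14 tested kinesins rose and 2 fell at 0.3 µM, and 4 rose and 4 fell at 3 µM. Of 6 cytoplasmic dynein chains, 3 rose and none fell at either dose, with 3 not called. Of 13 unconventional myosins, 1 rose and 8 fell at 0.3 µM (median log2 change -0.84), and none rose and 7 fell at 3 µM (median -1.04). Of 3 class II heavy chains 1 rose at 0.3 µM and none was called at 3 µM, and the 1 light chain tested fell at 0.3 µM. These are counts of a chosen list, and the difference between families was not tested.

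**Figure D2:**
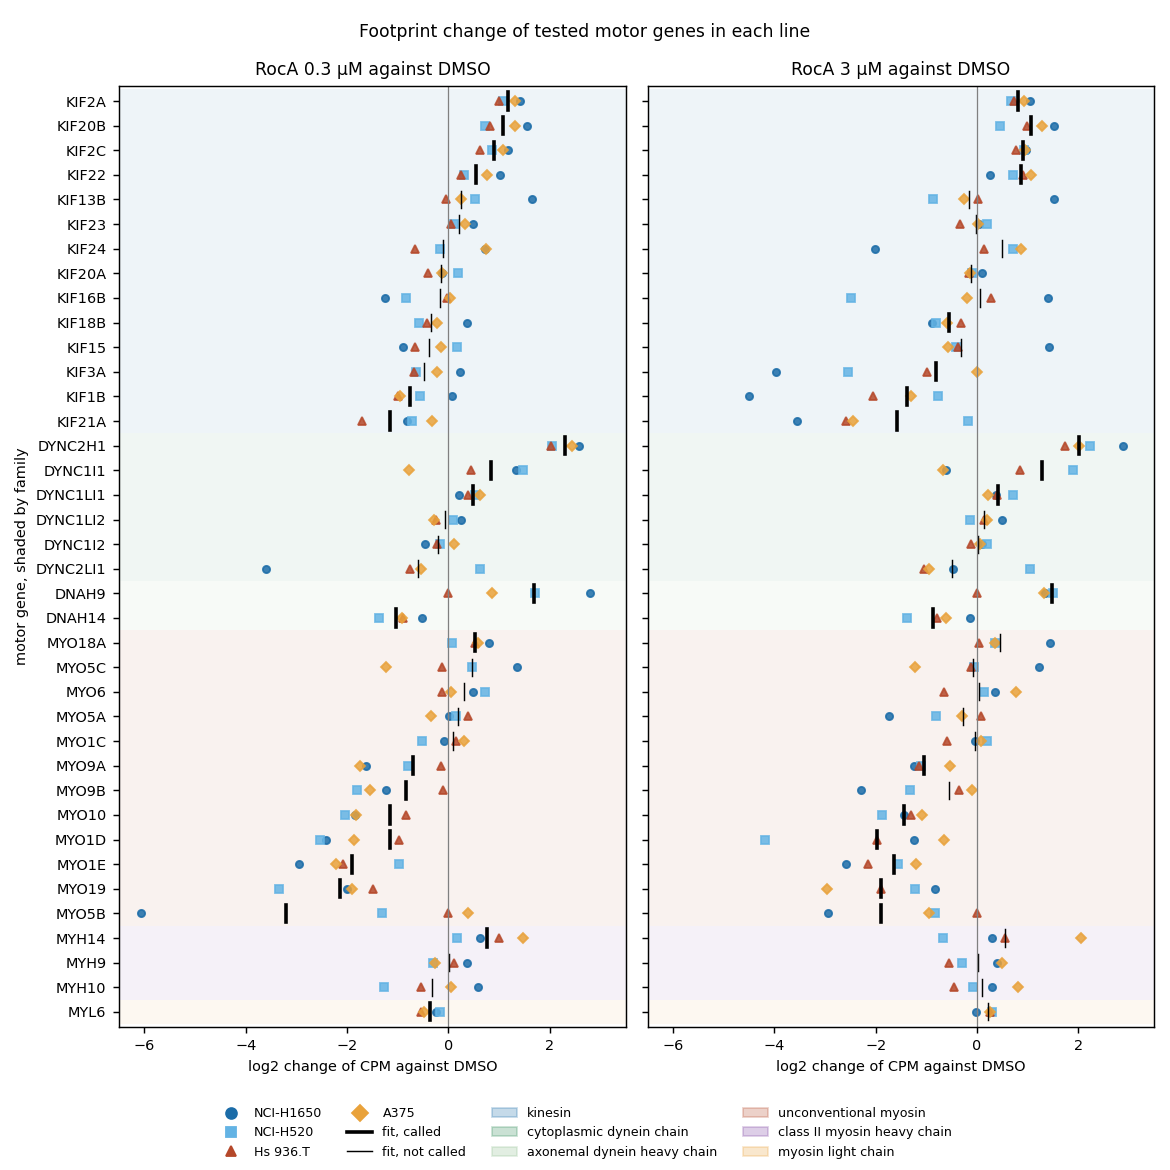
Log2 change of CPM against DMSO at 0.3 µM (left) and 3 µM (right) for 38 of the 39 tested motor genes, with 1 point per cell line and a black bar for the fit over the lines, thick where called. Most unconventional myosins lie left of 0, and KIF2A, KIF20B, KIF2C, KIF22 and DYNC2H1 lie right of 0 in each line; DNAH9 and MYO5B had no counts in Hs 936.T, where their points fall at 0.

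The kinesins that rose serve mitosis. KIF2A and KIF2C (MCAK) are kinesin-13 motors that take microtubules apart at spindle poles and kinetochores, KIF20B acts at the end of cell division, and KIF22 moves chromosome arms. KIF2A stood at 99.2 and 93.3 CPM under DMSO in NCI-H1650 and at 260.1 and 201 with 0.3 and 3 µM, and in NCI-H520 at 133 and 137 and then 289 and 215. In Hs 936.T it went from 236 and 203 CPM to 438 and 364, and in A375 from 134 and 161 to 370.1 and 280.3. Every treated library lay above both DMSO libraries of its line, and the level was higher at the lower dose in each line. RocA changed it by 1.17 ± 0.12 (SE) at 0.3 µM and 0.81 ± 0.14 at 3 µM, as log2 values (Benjamini-Hochberg adjusted p = 1.3e-11 and 3.3e-06, edgeR quasi-likelihood), while the difference between doses, -0.36 ± 0.16, was not called (adjusted p = 0.24, same test).

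KIF2C, the kinesin with the highest mean DMSO level, rose by the same amount at both doses. It went from 158 and 95.1 CPM to 282 and 242 in NCI-H1650, and from 636 and 641 to 1158 and 1214 in NCI-H520. In Hs 936.T it went from 186 and 189 CPM to 290.4 and 322, and in A375 from 265 and 281 to 579 and 530.4. Treated and DMSO libraries did not overlap in any line, and NCI-H520 stood highest throughout. The log2 change was 0.90 ± 0.11 at 0.3 µM and 0.90 ± 0.12 at 3 µM (SE), or 1.87-fold at each.

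KIF20B rose 2.11-fold at 0.3 µM and 2.08-fold at 3 µM. Its CPM went from 87 and 78.9 to 245 and 242 in NCI-H1650, from 111 and 122 to 195 and 160.1 in NCI-H520, from 188 and 176 to 324 and 364 in Hs 936.T and from 150.2 and 189 to 421 and 414 in A375. Again no treated library overlapped the DMSO libraries of its line. KIF22 rose by 0.54 ± 0.12 and 0.86 ± 0.13 on the log2 scale, also above both DMSO libraries in all 4 lines at either dose. Other mitotic kinesins were not called higher. KIF20A and KIF23, motors of the central spindle, and KIF15, a spindle motor, were not called, with log2 values of -0.14 ± 0.12, 0.20 ± 0.12 and -0.38 ± 0.23 at 0.3 µM and -0.12 ± 0.13, -0.03 ± 0.13 and -0.31 ± 0.27 at 3 µM. KIF18B, which shortens astral microtubules, was called lower at 3 µM, at -0.56 ± 0.20. That call ended with DESeq2 (-0.49), at equal depth (-0.35), and without the 3 µM library of NCI-H520 (-0.44) or A375 (-0.52) or the 0.3 µM library of NCI-H1650 (-0.45).

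The other kinesins that fell at either dose were KIF21A, KIF1B and KIF3A. KIF21A, which pauses microtubule growth, had the largest fall of the family. Its CPM went from 31.3 and 25.1 to 14.9 and 0 in NCI-H1650, from 44.4 and 72 to 33.4 and 49.7 in NCI-H520, from 58.4 and 69.7 to 17.9 and 8.48 in Hs 936.T and from 32.7 and 38.2 to 27.6 and 4.31 in A375. NCI-H520 at 3 µM was the only treated library that lay between the DMSO values of its line. The log2 change was -1.16 ± 0.33 at 0.3 µM and -1.58 ± 0.41 at 3 µM (SE). It depended on Hs 936.T, and without that line's library at the dose it was -0.67 and -1.08 and no longer called, while without NCI-H520 at 3 µM it was -2.97. In NCI-H1650 the DMSO level of KIF21A lay under the 60.4 CPM that a count of 0 allows at 3 µM.

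KIF1B, which carries mitochondria and synaptic vesicle precursors, fell, with log2 changes of -0.76 ± 0.22 at the lower and -1.38 ± 0.28 at the higher dose. At 3 µM it had no count in NCI-H1650, where the DMSO libraries held 62.7 and 52 CPM, a fall that this depth cannot resolve, and it lay below both DMSO libraries in all 4 lines. The call at 0.3 µM ended without the Hs 936.T library at that dose (-0.60) and with the longest matched entry of the gene (-0.39). KIF3A, the motor of ciliary anterograde transport, was called lower at 3 µM only, at -0.82 ± 0.28, a call that ended without the 3 µM library of NCI-H520 (-0.60) or Hs 936.T (-0.64) and at equal depth (-0.62), while it was -1.34 without A375. KIF13B, KIF16B and KIF24 were not called at either dose, with log2 values between -0.17 and 0.49 and SE between 0.28 and 0.41. The 11 other kinesins, such as the neuronal KIF5A and KIF21B, were too little read to be tested.

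Among the dyneins, the heavy chain of the ciliary motor, DYNC2H1, had the largest rise of all members at both doses. In NCI-H1650 its CPM went from 10.4 and 12.6 to 81.8 and 101, and in NCI-H520 from 14.1 and 3.43 to 39 and 44.2. In Hs 936.T it went from 46.7 and 49 to 203 and 165, and in A375 from 64.1 and 78.2 to 394 and 293. Every treated library lay well above both DMSO libraries of its line, on 5 to 100 counts per treated library. The log2 change was 2.30 ± 0.16 at 0.3 µM and 2.01 ± 0.20 at 3 µM (SE; Benjamini-Hochberg adjusted p = 9.9e-17 and 3.4e-12, edgeR quasi-likelihood), or 4.93-fold and 4.02-fold. It ranked 9 among the 5396 tested genes by log2 change at 0.3 µM and 25 at 3 µM. Its partner DYNC2LI1, the light intermediate chain of the same motor, was not called, with -0.61 ± 0.30 and -0.49 ± 0.34. Its log2 changes were -3.60 and -0.48 in NCI-H1650, -0.75 and -1.05 in Hs 936.T and -0.54 and -0.95 in A375, but 0.63 and 1.05 in NCI-H520. The NCI-H1650 values rest on 0 counts at 0.3 µM and 1 count at 3 µM. Its DMSO libraries there stood at 26.1 and 32.3 CPM, and 3 counts equal 22.3 and 60.4 CPM at these doses. The size of that change was not resolved at this depth. Without the NCI-H520 library at the dose DYNC2LI1 was called lower (-0.81 and -0.99).

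In the main cytoplasmic dynein, the chains differed. DYNC1LI2, the most read, stood at 306 and 349.7 CPM under DMSO and 386 and 463 with RocA in NCI-H1650, at 279 and 372 and then 339 and 293 in NCI-H520, at 333 and 338 and then 284 and 369 in Hs 936.T, and at 159 and 156 and then 129.9 and 181 in A375. Treated libraries lay on both sides of the DMSO libraries, and the log2 values of -0.07 ± 0.13 and 0.13 ± 0.14 were not called. Its paralog DYNC1LI1 rose by 0.48 ± 0.13 and 0.42 ± 0.14, with all 4 lines above their DMSO mean at each dose. In NCI-H1650 at 0.3 µM it stood at 89.2 CPM, between its DMSO libraries at 94 and 62.8. The call at 3 µM ended without the NCI-H520 library at 3 µM (0.36, Benjamini-Hochberg adjusted p = 0.054, edgeR quasi-likelihood).

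The intermediate chains dock dynactin and cargo. DYNC1I1, known mainly from neurons, went from 66.7 and 75.4 to 200.4 and 270.4 CPM in NCI-H520 and from 53 and 44.6 to 67 and 89 in Hs 936.T. In A375 it went from 10.1 and 7.14 to 3.94 and 4.31, and in NCI-H1650 it stood at 3.48 and 0 and then 7.43 and 0. NCI-H520 and Hs 936.T, in which it was best read, were both higher with RocA. In A375 each treated library held 1 count, and 3 counts there equal 11.8 and 12.9 CPM, so a difference from DMSO was not detectable at this depth. Its log2 change was 0.83 ± 0.26 at 0.3 µM and 1.29 ± 0.27 at 3 µM, and it was no longer called without the NCI-H520 library at the dose (0.46 and 0.78). The difference of response between lines was not called (Benjamini-Hochberg adjusted p = 0.082, edgeR quasi-likelihood). The broadly expressed DYNC1I2 was not called, with -0.20 ± 0.13 and 0.02 ± 0.14.

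The axonemal heavy chains that could be tested moved apart. DNAH9 went from 313 and 332 to 1063 and 911 CPM in NCI-H520, from 15.7 and 1.79 to 59.5 and 20.1 in NCI-H1650 and from 10.7 and 18.2 to 27.6 and 38.8 in A375, with no count in Hs 936.T. It was higher in every treated library of the 3 lines in which it was read, by 1.68 ± 0.20 and 1.47 ± 0.21 on the log2 scale in the fit. In NCI-H1650 at 3 µM this rests on 1 count, against 9 and 1 in the DMSO libraries, so a rise there was not resolved. The call at 3 µM ended without the NCI-H520 library at that dose (1.41, Benjamini-Hochberg adjusted p = 0.068, edgeR quasi-likelihood). DNAH14 fell (log2 change -1.04 ± 0.31 and -0.87 ± 0.34), from 52.5 and 42.8 to 16.7 and 16.6 CPM in NCI-H520, from 34.4 and 28.4 to 15.6 and 17 in Hs 936.T, from 54.6 and 53.2 to 27.6 and 34.5 in A375 and from 27.8 and 17.9 to 14.9 and 20.1 in NCI-H1650. All lines were lower at 0.3 µM and 3 of 4 lay below both DMSO libraries at 3 µM, on 1 to 8 counts per treated library. In NCI-H1650 3 counts equal 22.3 and 60.4 CPM at these doses, so its change there was not resolved. At 3 µM the call ended without the 3 µM library of NCI-H520 (-0.65), Hs 936.T (-0.84) or A375 (-1.06), without NCI-H520 DMSO replicate 1 (-0.78) or the 0.3 µM library of NCI-H1650 (-0.77), and with DESeq2 (-0.81).

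**Figure D3:**
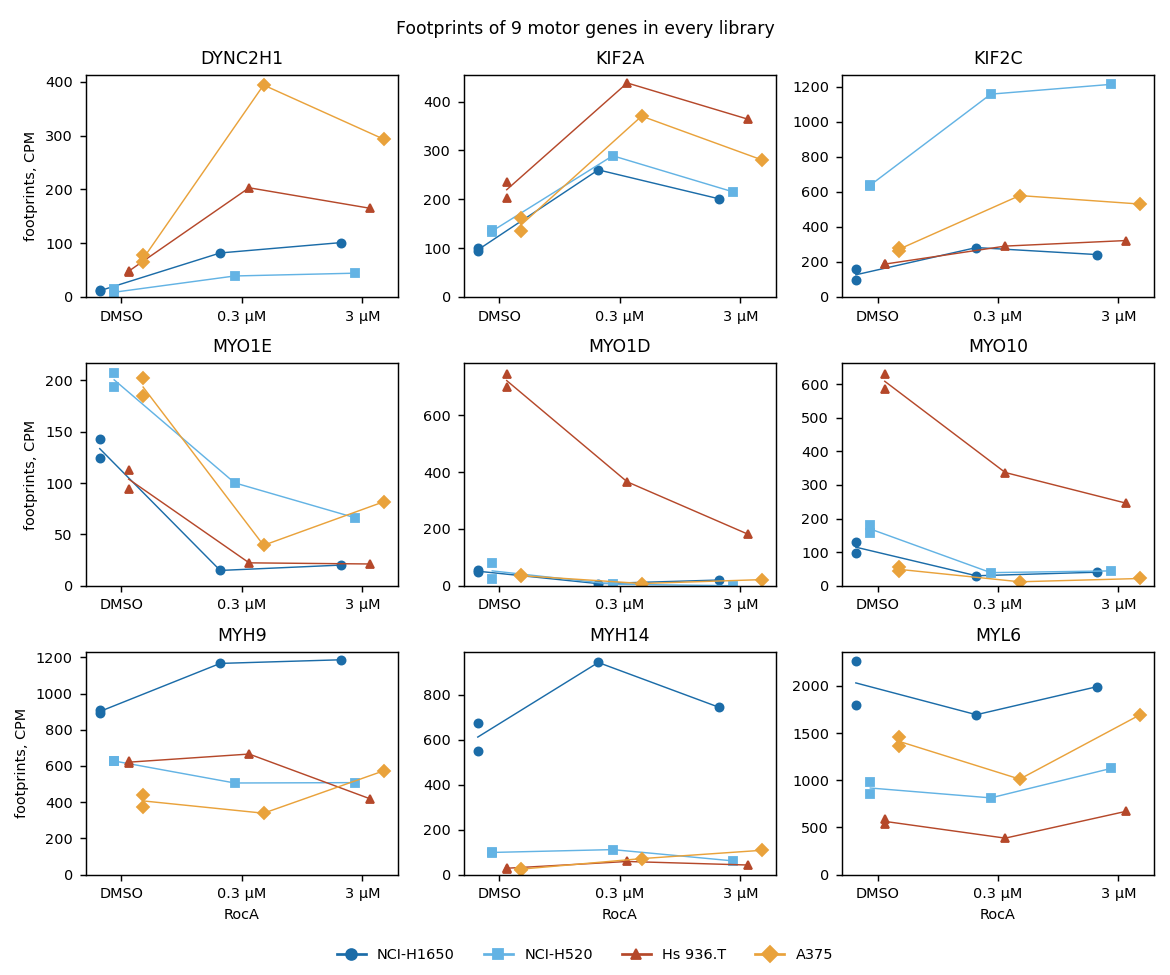
Footprints (CPM, from 0) of 9 motor genes in every library, with 1 point per library, both DMSO replicates of a line at the same place on the axis and lines joining the DMSO mean to each dose. DYNC2H1, KIF2A and KIF2C are higher and MYO1E, MYO1D and MYO10 lower with RocA in every line, while MYH9 lies on both sides of its DMSO level.

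Falls were most frequent among the unconventional myosins, and several of them were class I myosins, single-headed motors that tie membranes to actin. MYO1E, which acts in endocytosis, went from 143 and 124 to 14.9 and 20.1 CPM in NCI-H1650 and from 194 and 207 to 100.2 and 66.2 in NCI-H520. It went from 113 and 94.7 to 22.3 and 21.2 CPM in Hs 936.T and from 185 and 202 to 39.4 and 81.9 in A375. Every treated library lay below both DMSO libraries of its line, and the change in NCI-H520 was the smallest at 0.3 µM. Its log2 change was -1.91 ± 0.22 at 0.3 µM and -1.63 ± 0.24 at 3 µM (SE; Benjamini-Hochberg adjusted p = 4.1e-10 and 1.1e-07, edgeR quasi-likelihood). By log2 change it ranked 296 from the lowest of 5396 genes at 0.3 µM and 633 at 3 µM.

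MYO1D fell as well (log2 change -1.16 ± 0.24 and -1.98 ± 0.31). In Hs 936.T, which held most of its counts, it went from 699 and 746 to 366 and 182 CPM. Without the Hs 936.T library at 0.3 µM the change at that dose was -2.63, and without the one at 3 µM the change there was -1.67 and not called (Benjamini-Hochberg adjusted p = 0.057, edgeR quasi-likelihood). MYO1C, which recycles glucose transporters and membrane, was not called, with 0.08 ± 0.14 and -0.05 ± 0.16. Its level in NCI-H1650 was 278 and 260.1 CPM under DMSO and 253 and 262 with RocA. The difference between MYO1C and MYO1E was not itself tested.

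MYO10 fell, with log2 changes of -1.15 ± 0.17 at the lower and -1.44 ± 0.21 at the higher dose. Its CPM went from 131 and 98.6 to 29.7 and 40.3 in NCI-H1650, from 158 and 179.9 to 39 and 44.2 in NCI-H520, from 586 and 631 to 337 and 246 in Hs 936.T and from 54.6 and 42.9 to 11.8 and 21.6 in A375. All treated libraries lay below the DMSO libraries of their line. At 0.3 µM the change in Hs 936.T (-0.84) was smaller than in the other lines (-2.04 to -1.82), and without that library the fit gave -2.0. MYO10, MYO1D, MYO5A and MYH10 are highest in Hs 936.T, and whether their NCI-H520 levels move with the pigment-cell share given above was not tested. At 0.3 µM the log2 changes in NCI-H1650 and A375, where that share was low, were -1.84 and -1.82 for MYO10 and -2.42 and -1.87 for MYO1D.

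MYO19, a motor on mitochondria, fell (log2 change -2.14 ± 0.35 and -1.90 ± 0.39), below both DMSO libraries in every line, on 1 to 8 counts per treated library. In NCI-H1650 at 3 µM the DMSO levels of MYO19, MYO1D and MYO9A lay under 60.4 CPM, so their falls cannot be resolved in that library. MYO9A and MYO9B, the class IX myosins, were lower with less support. MYO9A was called at both doses, at -0.70 ± 0.28 and -1.04 ± 0.36. Its call at 0.3 µM ended without the library at that dose of NCI-H1650 (-0.44), NCI-H520 (-0.66) or A375 (-0.49) or without NCI-H1650 DMSO replicate 2 (-0.63), and it was -1.40 without Hs 936.T. Its call at 3 µM ended without the 3 µM library of NCI-H520 (-0.95) or Hs 936.T (-0.88). MYO9B was called at 0.3 µM only, at -0.84 ± 0.26, a call that ended without the library at that dose of NCI-H1650 (-0.63) or A375 (-0.58) and at equal depth (-0.74), and the value was -1.54 without Hs 936.T. At 3 µM MYO9B gave -0.55 ± 0.29, and without the A375 library at that dose -0.91, which was called.

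Among the class V myosins, the vesicle carriers, MYO5B alone was called. MYO5B was called lower at both doses, but it was read mainly in NCI-H1650, where it went from 183 and 163 CPM to 0 at 0.3 µM and 20.1 (1 count) at 3 µM. In NCI-H520 it went from 36.4 and 27.4 to 11.1 and 16.6 CPM, in A375 from 2.37 and 2.5 to 3.94 and 0, and in Hs 936.T it had no count. At 0.3 µM all lines together held 3 counts, so the pooled DMSO level was 7.75-fold the treated one, with a 95% counting interval of 2.62 to 37.9. Without the NCI-H1650 library at the dose the fit gave -0.90 and -1.13 and the calls ended, as they did with DESeq2 (-1.47 and -1.13), while without the NCI-H520 library at the dose it gave -4.32 and -3.03. MYO5B has coding exons that overlap those of AC090227.1 on the same strand. MYO5A, which moves pigment granules, and MYO5C were not called, with 0.19 ± 0.15 and 0.47 ± 0.38 at 0.3 µM and -0.28 ± 0.17 and -0.09 ± 0.43 at 3 µM. MYO6, the motor that walks toward the minus end of actin, was not called either, with 0.30 ± 0.20 and 0.03 ± 0.24. Without the Hs 936.T library at the dose, MYO5A was called lower at 3 µM (-0.66) and MYO6 higher at 0.3 µM (0.56).

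MYO18A, a motor-like Golgi protein, was the unconventional myosin that rose. It went from 95.7 and 66.4 to 141 and 221 CPM in NCI-H1650, from 76.8 and 61.7 to 72.4 and 88.3 in NCI-H520, from 57.5 and 66.3 to 89.4 and 63.6 in Hs 936.T and from 65.3 and 49.6 to 86.6 and 73.3 in A375. NCI-H520 at 0.3 µM and Hs 936.T at 3 µM lay within the DMSO range of their line. Its log2 change was 0.53 ± 0.19 at 0.3 µM, and at 3 µM 0.45 ± 0.23 was not called. The call ended without the Hs 936.T library at 0.3 µM (0.53, Benjamini-Hochberg adjusted p = 0.063, edgeR quasi-likelihood), at equal depth (0.46) and when libraries were scaled by their totals alone (0.39).

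The 3 heavy chains of non-muscle myosin II, the motor of cell contraction and of the cleavage furrow, differed from each other. MYH9 (IIA), the most read, stood at 907 and 895 CPM under DMSO and 1167 and 1187 with RocA in NCI-H1650, at 626 and 629 and then 506 and 508 in NCI-H520, at 616 and 626 and then 666 and 419.6 in Hs 936.T, and at 373 and 441 and then 339 and 574 in A375. It was higher in NCI-H1650 and lower in NCI-H520 at both doses, and in Hs 936.T and A375 the direction differed between the doses. The fit gave 0.01 ± 0.13 and 0.01 ± 0.14, not called.

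MYH14 (IIC) went from 550 and 674 to 944 and 745 CPM in NCI-H1650, from 99 and 97.7 to 111 and 60.7 in NCI-H520, from 30.4 and 25.6 to 58.1 and 42.4 in Hs 936.T and from 21.4 and 26.8 to 70.9 and 108 in A375. All lines were higher at 0.3 µM, and NCI-H520 alone was lower at 3 µM. The rise at 0.3 µM was 0.76 ± 0.22 on the log2 scale, and it ended as a call without all libraries of Hs 936.T (0.75, Benjamini-Hochberg adjusted p = 0.071, edgeR quasi-likelihood). At 3 µM 0.55 ± 0.28 was not called, but it was without the NCI-H520 library at 3 µM (0.85). MYH10 (IIB) went from 131 and 177 to 61.2 and 143 CPM in NCI-H520, from 793 and 791 to 543 and 581 in Hs 936.T, from 194 and 244 to 224 and 384 in A375 and from 118 and 80.7 to 149 and 121 in NCI-H1650. It was lower in Hs 936.T and higher in NCI-H1650 at both doses. The fit gave -0.32 ± 0.21 and 0.10 ± 0.22, not called. MYH10 has coding exons that overlap NDEL1 on the opposite strand, and the strand setting of the counting is not given in these sources.

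MYH14 and MYH10 were the 2 members whose response to RocA differed between the lines (adjusted p = 0.0037 and 0.0055, edgeR quasi-likelihood F test, Benjamini-Hochberg), where 3.52% of all tested genes were called. For MYH14 the log2 changes at 0.3 and 3 µM were 1.47 and 2.06 in A375, 0.99 and 0.56 in Hs 936.T, 0.63 and 0.29 in NCI-H1650 and 0.17 and -0.67 in NCI-H520. For MYH10 they were 0.04 and 0.81 in A375, 0.59 and 0.30 in NCI-H1650, -0.54 and -0.45 in Hs 936.T and -1.28 and -0.08 in NCI-H520. Both results leaned on A375 at 3 µM, without which the adjusted p was 0.25 for MYH14 and 0.17 for MYH10 (edgeR quasi-likelihood test). At equal depth it was 0.47 and 0.087, and for MYH10 it was also 0.061 without the 0.3 µM library of NCI-H1650 and 0.12 with DESeq2.

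MYL6, the light chain that these heavy chains share, was the only member called between the doses, where 3.04% of all tested genes were. It went from 1799.6 and 2265 to 1695 and 1992 CPM in NCI-H1650 and from 850.3 and 985 to 813 and 1126 in NCI-H520. In Hs 936.T it went from 589.8 and 538 to 386 and 669.6 CPM, and in A375 from 1458 and 1366 to 1012 and 1695. In each line it was below both DMSO libraries at 0.3 µM, and in 3 of 4 above both at 3 µM, NCI-H1650 at 3 µM lying between its DMSO libraries. The log2 change was -0.37 ± 0.10 at 0.3 µM, and 0.21 ± 0.10 at 3 µM was not called (Benjamini-Hochberg adjusted p = 0.071, edgeR quasi-likelihood). Under 16 of 28 alternatives MYL6 was called higher at 3 µM, at 0.23 to 0.37, among them DESeq2 (0.27), equal depth (0.29) and the data without all libraries of NCI-H1650 (0.37). The difference of 3 against 0.3 µM was 0.58 ± 0.12 (adjusted p = 0.0034, same test), and it was 0.50 and not called without all libraries of A375 (adjusted p = 0.059).

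The relation of the change with RocA to coding length was weak. Members are long, with a median of 1244 codons counted against 552 over all tested genes. Across the 39 members Spearman's correlation of codons and log2 change was -0.01 at 0.3 µM and -0.08 at 3 µM, and across all 5396 genes it was -0.04 and -0.10; genes are not independent replicates, and these are descriptions. Of the 7 members with at least 2000 codons, 3 rose (DNAH9, DYNC2H1 and MYO18A) and 4 fell (DNAH14, MYO10, MYO9A and MYO9B) at 0.3 µM. At 3 µM 2 of the 7 rose and 3 fell. Of 250 tested genes of that length, 79 rose and 61 fell at 0.3 µM, and 55 rose and 77 fell at 3 µM. Over all tested genes the median change went down over 3 length classes under 2000 codons, from the shortest at -0.12 to -0.22 and -0.32 at 0.3 µM, and from -0.10 to -0.27 and -0.44 at 3 µM. From 2000 codons it was 0.00 and -0.18. The motor genes in the same 4 classes had medians of -0.37, 0.03, -0.10 and -0.70 at 0.3 µM and 0.13, -0.01, -0.09 and -0.55 at 3 µM. DYNC2H1, DNAH9 and DNAH14 are of nearly the same length, with 4298, 4477 and 4506 codons counted, and only DNAH14 fell.

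**Figure D4:**
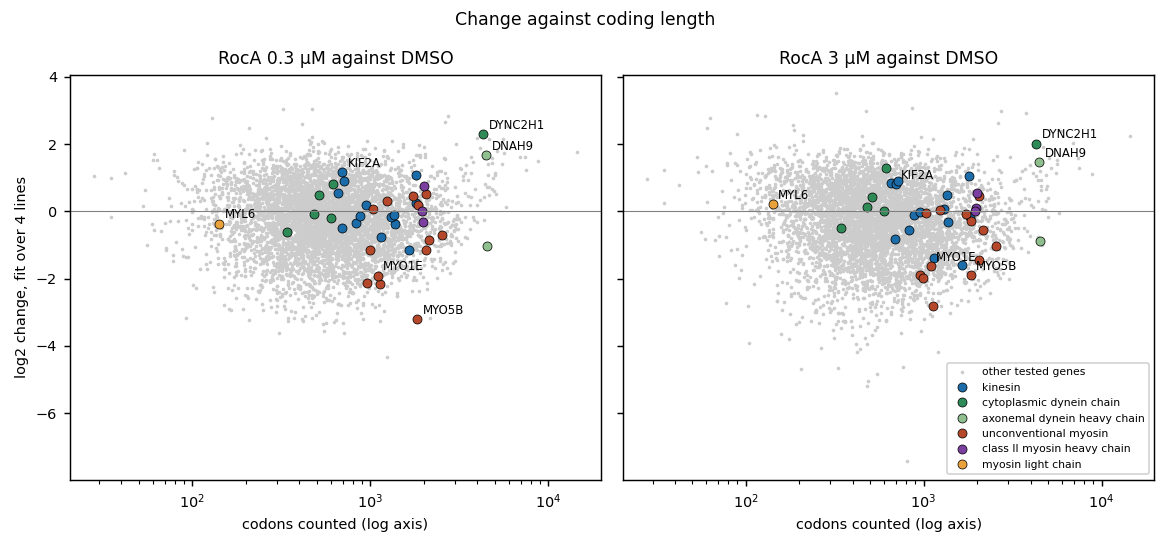
Log2 change in the fit against codons counted (log axis) at 0.3 µM (left) and 3 µM (right), with motor genes coloured by family over all other tested genes in grey. Members spread above and below 0 at every length, and the 3 longest are DYNC2H1 and DNAH9 above 0 and DNAH14 below it.

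Partners of the motors were followed through 8 lists, of which 84 genes were tested. In all, 18 of the 84 rose and 31 fell at 0.3 µM, and 20 rose and 27 fell at 3 µM, with medians of -0.16 and -0.05, near those of the motor genes. The lists were chosen by function. Their counts are read against the shares of all genes given above, 23.8% and 35.9% at 0.3 µM and 22% and 34.3% at 3 µM.

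Dynein's own helpers included some of the larger falls. Of 8 tested regulators and adaptors 1 rose and 4 fell at either dose (median -0.58 and -0.67). PAFAH1B1 (LIS1), which activates dynein, fell (log2 change -2.32 ± 0.19 and -2.57 ± 0.23), and SPDL1, which brings dynein to kinetochores, fell too (-2.48 ± 0.28 and -2.12 ± 0.30). NDE1, a LIS1 partner, rose by 0.69 ± 0.17 and 0.98 ± 0.19. Each of the 3 had the same direction in all 4 lines, and NDE1 shares coding exons with MYH11 on the opposite strand. Of 8 dynactin subunits 3 rose and 3 fell at 0.3 µM and 2 rose and 1 fell at 3 µM, from a rise of DCTN4 (1.39 ± 0.12 and 1.5 ± 0.13) to a fall of DCTN5 at 0.3 µM (-1.34 ± 0.20). Of 8 kinesin light chains and adaptors, none rose and 2 fell at 0.3 µM and 1 rose and 2 fell at 3 µM. KLC1, the cargo-binding light chain of conventional kinesin, fell (log2 change -1.96 ± 0.21 and -2.22 ± 0.25).

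Of 12 regulators of myosin II, 1 rose and 6 fell at 0.3 µM and 2 rose and 6 fell at 3 µM (median -0.91 and -0.83). ROCK2, a kinase that activates the light chain, fell (log2 change -1.75 ± 0.25 at 0.3 µM and -1.18 ± 0.26 at 3 µM), and ROCK1 fell too (-1.40 ± 0.37 and -2.34 ± 0.53). Of 8 actin filament proteins 4 rose and 2 fell at 0.3 µM and 6 rose and 2 fell at 3 µM (median 0.48 and 0.62). The tropomyosin TPM3, which gates myosin on actin, fell (log2 change -1.24 ± 0.11 and -0.78 ± 0.11). Of 9 tubulins 4 rose and 1 fell at 0.3 µM and 2 rose and 1 fell at 3 µM (median 0.44 and 0.35). TUBA1C stood at 0.74 ± 0.08 and 0.60 ± 0.08 and TUBB at -0.62 ± 0.09 and -0.44 ± 0.09. Reads of near-identical tubulins and actins cannot be fully assigned to a single gene.

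Of 18 spindle and midzone proteins 4 rose and 9 fell at 0.3 µM and 4 rose and 8 fell at 3 µM (median -0.37 and -0.10). BIRC5 (survivin), of the chromosomal passenger complex, rose by 0.72 ± 0.12 and 1.16 ± 0.13, and ECT2, which starts the cleavage furrow, fell (log2 change -1.86 ± 0.17 and -1.84 ± 0.18). Of 13 intraflagellar transport proteins, which ride on KIF3A and DYNC2H1, 1 rose and 4 fell at 0.3 µM and 2 rose and 3 fell at 3 µM. IFT20 rose by 1.47 ± 0.31 and 0.96 ± 0.39, and IFT46 fell (log2 change -2.34 ± 0.48 and -1.77 ± 0.48).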

How the data were processed

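Each library holds raw footprint counts per transcript entry as the authors deposited them, with the codons counted per entry (coding codons less 10). CASAVA 1.8, Bowtie2 2.1.0, TopHat2 2.0.9 and hg38 are named in the submitters' processing notes, and the counting tool, its strand setting and the annotation release are not given in the sources used here. Entries carry no gene names. Runs of coding lengths were matched to GENCODE 29 genes (natural log score at least 12, odds at least 100), which named 8503 genes, and decoy lengths gave 0.834% as many. The entry with the highest count was used for each gene. Footprints shared by entries of several genes cannot be told apart by this matching.

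Counts were scaled by TMM, filtered at a minimum count of 10 and tested with edgeR 4.0.16 (robust quasi-likelihood, cell line and dose as terms, 16 libraries) in R 4.3.3, with Benjamini-Hochberg adjustment over all genes tested and calls at 0.05. Untreated lines were compared over the 8 DMSO libraries, and responses of the lines by an F test of line by treatment. Errors of log2 changes are SE, and those of levels SD. Log2 changes per line used a prior count of 2. In simulated data of 5255 genes, 84.3% of planted 2-fold changes were recovered at 0.3 µM and 77.5% at 3 µM, with 0.217% and 0.079% false calls. Only 191 genes were changed there, alike in all lines, whereas 59.6% and 56.3% of genes were called in the data. The simulated rates therefore need not hold for the data. Alternatives were DESeq2 1.42.0, other scalings, no filter, equal depth, other entries, stricter naming and fewer libraries.

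Values in every library are given for the highest member of each family, its largest called rise and fall at each dose, and the 3 members with the smallest p for untreated lines and for differing responses. Every other called member is named, and of each partner list at most the largest rise and fall at each dose, except that 1 member that fell and 1 partner are counted but not reported here. The members and lists were chosen with earlier results of these data known. DMSO replicate numbers were not used to pair the libraries. Correlations of deviations between lines were -0.035 to 0.113, the highest for Hs 936.T with A375. Counting noise lowers such values, so they cannot exclude that libraries of the same number were prepared together. DMSO replicates of a line differed by more than counting noise (chi-square per degree of freedom 1.518 to 2.55).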

Additional observations from a re-analysis of the deposited data

Results flagged for a closer look

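Among 78 sets of 4 line changes, 3 held 1 line far from the others, and chance gives about 1 in 20 such sets. DNAH9 at 3 µM was at 0.0 in Hs 936.T, where it had no count, and between 1.32 and 1.49 on the log2 scale in the other lines. Its value in NCI-H1650 rests on 1 count. KIF15 at 3 µM was at 1.41 in NCI-H1650, on 6 counts, and between -0.58 and -0.38 in the others. MYL6 at 3 µM was at -0.02 in NCI-H1650 and between 0.25 and 0.30 in the others. The response to RocA differed between lines for MYH14 (adjusted p = 0.0037, edgeR quasi-likelihood F test) and MYH10 (adjusted p = 0.0055, same test). For MYH14 all lines were higher at 0.3 µM and A375 most, and for MYH10 Hs 936.T was lower and NCI-H1650 higher at both doses.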

How the results depend on the processing

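Leaving out 1 library at a time, 9 to 10 members rose and 9 to 13 fell at 0.3 µM, 6 to 10 rose and 8 to 12 fell at 3 µM, 1 differed between doses in each case, and 0 to 3 differed in response between lines. At equal depth within each line, 33 members could be tested. Of these 9 rose and 7 fell at 0.3 µM and 10 rose and 6 fell at 3 µM, against 10 and 12 and 8 and 12 of 39 as deposited, with 0 differing in response. Of all 4244 genes tested at equal depth, 1017 rose and 1340 fell at 0.3 µM, and 1081 rose and 1353 fell at 3 µM. In response, 1 differed with DESeq2, and 0 without all libraries of A375 and 1 without all of Hs 936.T. Without all libraries of A375, 0 differed between doses. Leaving out whole lines was added after seeing the data. With library totals alone, 18 members fell at 0.3 µM, the median of all genes moved from -0.18 to -0.32 at 0.3 µM and from -0.24 to -0.33 at 3 µM, and rises made up 32.5% and 33.9% of calls instead of 39.9% and 39.1%. Between untreated lines 41 to 52 members differed when 1 library was left out, and 45 with the replicate block, as without it. Over settings, the 42 called results kept their call in 1094 values and lost it in 71, the 36 not called stayed so in 945 and gained a call in 52, and 0 reversed. Depth limits the falls that can be seen: with 42735 counts over named genes in the smallest treated library, falls of genes under 60.4 CPM cannot be resolved there.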
